A study of Drosophila melanogaster with 2 samples.

Results

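The 10 genes described here belong to the bone morphogenetic protein (BMP) pathway, and they were followed through the peak lists of a chromatin immunoprecipitation and sequencing (ChIP-seq) study in Drosophila melanogaster. They are dpp, gbb, tkv, sax, cv-2, Mad, Med, Dad, brk and shn. The 10 genes were taken by name from the 13986 protein-coding genes of the Ensembl annotation, for their place in the pathway, and they were chosen with earlier results of these data known. The locus of a gene is taken here as the annotated gene plus 2 kb on either side, and a peak was counted for each gene whose locus held its summit. The study mapped regions recovered with buttonless (btn), a homeodomain protein. There was 1 group with 2 biological replicates, numbered 2 and 3 by the labels. Each replicate was a pool of whole embryos of both sexes, aged 0 to 14 hours. All embryos came from 1 transgenic line, named btn-GFP, in which btn carries a GFP at its C-terminus, and the precipitation used an antibody against GFP. The labels do not state which promoter drives the fusion. Chromatin was sonicated to 200 to 800 bp. The labels name a possible control experiment, but no control or untagged embryos were analysed here, so no background level can be set beside the peaks, and a peak alone does not establish binding of btn. In whole embryos, recovery in few cells and weak recovery in many cells cannot be told apart.

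BMP ligands are secreted dimers that bind pairs of type I and type II receptor kinases on the cell surface. The type I receptor phosphorylates the receptor Smad Mad, which joins the co-Smad Med and enters the nucleus. In the fly embryo a gradient of the ligand dpp patterns the dorsal side, where high signalling specifies the amnioserosa. In many fly tissues the pathway acts by lifting repression: Mad, Med and the zinc finger protein shn together shut off brk, a repressor of dpp target genes. The inhibitory Smad Dad is induced by the pathway and dampens it.

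The authors deposited 4 lists in the dm6 build that were used. Each replicate list and the list from pooled replicates holds 30000 candidate regions, and the optimal list holds the 2153 regions that passed the authors' reproducibility threshold. The optimal regions are the 2153 strongest pooled candidates, and 70.3% of them overlap a candidate among the 2153 strongest of both replicates. A place in the optimal list therefore does not mean that a region was strong in each replicate. Signal is the authors' own value for a region and was compared within a list only; a rank of 1 is the strongest signal of a list. No list gives read counts, so depth is unknown and no value below carries a sequencing error; the replicates are given side by side instead. Regions are not independent samples of embryos, and no test between conditions could be made with 1 group.

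The sequences around 5 of the 18 summits are shown, those of dpp, tkv, Mad, Dad and brk, because each is the single optimal summit of its gene and lies in an intron or upstream of it. They do not stand for the rest: the windows at gbb, Med, cv-2 and shn are not shown, although gbb also has a single summit upstream and cv-2 and shn have summits in introns. Each is the 201 bp centred on the optimal summit, plus strand of dm6, from the RefSeq Release 6 assembly. Capitals run from the lowest to the highest of the 3 summits called in the pooled list, replicate 2 and replicate 3.
dpp, chr2L:2433503-2433703: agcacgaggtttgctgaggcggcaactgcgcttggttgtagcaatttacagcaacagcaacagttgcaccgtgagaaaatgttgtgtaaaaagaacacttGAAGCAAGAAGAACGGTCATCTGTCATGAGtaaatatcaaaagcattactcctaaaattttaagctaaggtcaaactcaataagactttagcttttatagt
tkv, chr2L:5256560-5256760: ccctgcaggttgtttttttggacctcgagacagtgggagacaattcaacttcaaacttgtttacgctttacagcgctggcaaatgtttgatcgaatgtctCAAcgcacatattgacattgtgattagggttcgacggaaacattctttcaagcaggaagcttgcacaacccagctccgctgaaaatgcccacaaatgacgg
Mad, chr2L:3153309-3153509: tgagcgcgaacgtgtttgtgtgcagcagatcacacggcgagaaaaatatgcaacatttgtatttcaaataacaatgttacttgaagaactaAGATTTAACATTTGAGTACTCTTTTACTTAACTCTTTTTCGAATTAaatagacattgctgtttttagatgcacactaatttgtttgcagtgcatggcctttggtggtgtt
Dad, chr3R:17065027-17065227: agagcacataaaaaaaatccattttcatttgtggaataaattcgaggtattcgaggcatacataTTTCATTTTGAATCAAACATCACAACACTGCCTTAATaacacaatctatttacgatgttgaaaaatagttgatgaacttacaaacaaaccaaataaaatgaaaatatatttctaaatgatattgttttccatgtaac
brk, chrX:7307028-7307228: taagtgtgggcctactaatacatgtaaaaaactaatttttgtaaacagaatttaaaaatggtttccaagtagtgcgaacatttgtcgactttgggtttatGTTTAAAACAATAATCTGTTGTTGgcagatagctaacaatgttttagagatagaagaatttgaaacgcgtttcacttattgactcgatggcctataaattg

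The capitals span 3 bases at tkv, 24 at brk, 30 at dpp, 37 at Dad and 46 at Mad. None of these 5 windows held any of the 5 short words searched. The windows that did hold one were all at cv-2 and shn, which are not shown, and they are described at the end.

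Of the 10 genes, 9 had at least 1 optimal summit at the locus. Over all 13986 protein-coding genes the share with one was 18.6%. When each summit was given only to the gene of the nearest TSS, 5 of the 10 genes had one (dpp, cv-2, Mad, brk and shn), and the share of all protein-coding genes was 10.2%. The 10 genes held 18 optimal summits in all, each counted once, and 125 pooled candidates. Thus 14.4% of their pooled candidates were optimal, against 7.18% of all 30000. By gene the share was 24.2% at shn and 14.3 to 20% at gbb, Med, brk, cv-2 and Mad. At dpp, Dad, tkv and sax it was 8.33, 7.69, 4.35 and 0%. The median number of optimal summits per gene was 1 for the 10 genes and 0 for all protein-coding genes. Gene length, which moves with such counts, is taken up below. The gene sax was the exception, with no optimal summit.

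**Figure D1:**
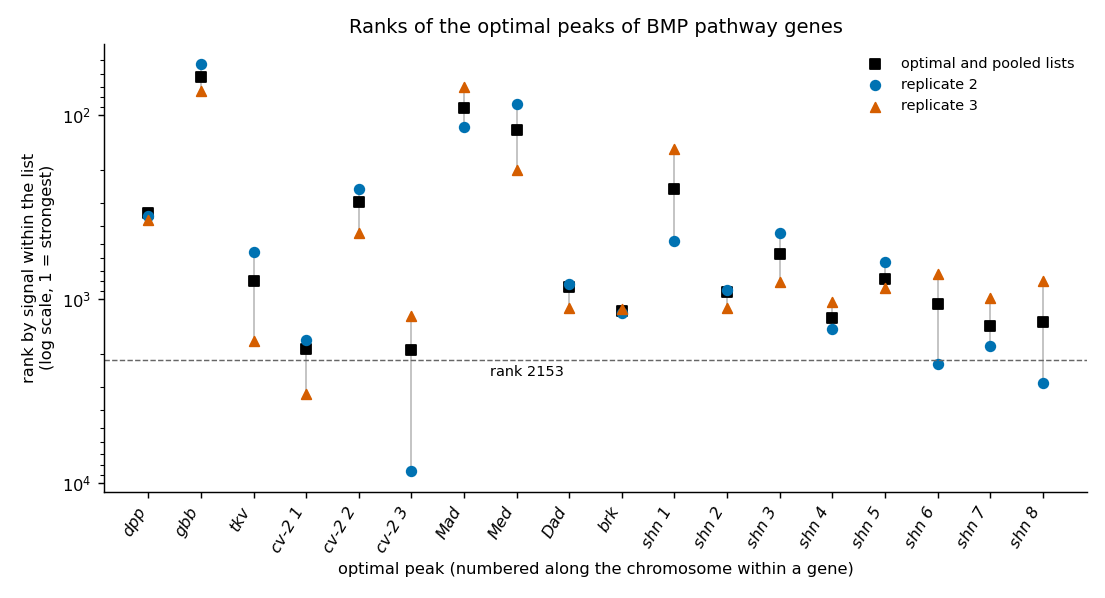
Rank by signal of each of the 18 optimal peaks in the pooled list (black squares), replicate 2 (blue circles) and replicate 3 (orange triangles), on a log axis with the strongest at the top; grey lines join the replicates and the dashed line is rank 2153. The peaks at gbb, Mad and Med lie highest, and the cv-2 peak at the promoter has the widest gap between replicates, from rank 1243 to rank 8637.

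The ligand gene dpp (decapentaplegic; FBgn0000490, 2L 2428372 to 2459823, plus strand, 31452 bp, 4 transcription start sites or TSSs) had 1 optimal peak, from 2433567 to 2433703. Its summit lay in an intron, 5231 bp downstream of the first TSS. Its signal was 183 in the pooled list (rank 342), 90.7 in replicate 2 (rank 356) and 89.6 in replicate 3 (rank 374). The 3 ranks were close to each other. The next pooled candidate of dpp was 1708 bp upstream of the gene, with a signal of 66.6 at rank 2378, just under the weakest optimal peak at rank 2153. A list of the strongest 2153 candidates of replicate 3 alone held 2 summits at dpp rather than 1.

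The ligand gene gbb (glass bottom boat; FBgn0024234, 2R 23851562 to 23853247, plus strand, 1686 bp) had the strongest peak of the 18. The summit was 1138 bp upstream of its single TSS, in a region from 23850279 to 23850543. Its signal was 389 in the pooled list (rank 62), 216 in replicate 2 (rank 53) and 173 in replicate 3 (rank 74), so it was among the strongest 100 regions of every list. The summit lies in an exon of the noncoding gene asRNA:CR45928 and only 123 bp from the TSS of eIF6, a translation initiation factor gene. The windows of eIF6 and ytr hold it too. With a window of 1 kb, or with the summit given only to the gene of the nearest TSS, gbb had no optimal summit.

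The receptor gene tkv (thickveins, a type I receptor; FBgn0003716, 2L 5219000 to 5271384, minus strand, 52385 bp, 4 TSSs) had 1 optimal peak among 23 pooled candidates. The summit was in an intron, 14724 bp from the first base of the gene and 12521 bp upstream of the nearest TSS of tkv itself. Its signal was 121 in the pooled list (rank 797), 73.4 in replicate 2 (rank 558) and 43.9 in replicate 3 (rank 1681). Replicate 2 thus placed it well above replicate 3, although both put it among their strongest 2153. The nearest protein-coding TSS was that of Cyp4ac1, 7341 bp away. The strongest candidate of tkv in replicate 3 was another one, 5 bp from a TSS of tkv (signal 44.2, rank 1654). The corresponding pooled candidate, 6 bp from that TSS, missed the optimal list at rank 2630 with a signal of 63.0.

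The receptor gene sax (saxophone, the other type I receptor; FBgn0003317, 2R 7806484 to 7810067, plus strand, 3584 bp, 2 TSSs) had 2 pooled candidates and no optimal summit. The stronger had a signal of 33.7 at rank 9432 and lay downstream of the gene, in a coding exon of TTLL12. The weaker was 214 bp upstream of a TSS, in the 5′ UTR of Nop17l, with a signal of 20.1 at rank 27825. In replicate 2 the best candidate at sax ranked 10029 and in replicate 3 it ranked 10079. No list therefore placed a region at sax among its strongest 2153. Among protein-coding genes within 25% of its length, 81.2% were also without an optimal summit.

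The gene cv-2 (crossveinless 2, a secreted BMP binding protein; FBgn0000395, 2R 21355015 to 21379464, minus strand, 24450 bp, 1 TSS) had 3 optimal peaks among 20 pooled candidates. The strongest lay in an intron, 15282 bp from the TSS, with a signal of 195 in the pooled list (rank 297), 107 in replicate 2 (rank 253) and 82.8 in replicate 3 (rank 436), and its summit was at the same base in all 3 lists. A weaker one was in the same stretch of the gene, 16847 bp from the TSS, with a signal of 76.0 in the pooled list (rank 1878), 41.0 in replicate 2 (rank 1669) and 31.9 in replicate 3 (rank 3275). The peak at the promoter had its summit in the 5′ UTR, 143 bp downstream of the TSS, with a signal of 75.8 in the pooled list (rank 1891). It rested on replicate 3, where its signal was 51.3 (rank 1243); in replicate 2 the nearest candidate was 132 bp away with a signal of 18.4 (rank 8637). Both intronic summits were nearer to the TSS of CG17974, at 13604 and 12039 bp, than to that of cv-2.

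The Smad gene Mad (Mothers against dpp, the receptor Smad; FBgn0011648, 2L 3146056 to 3159643, minus strand, 13588 bp, 2 TSSs) had a strong peak at an internal promoter. The region ran from 3153269 to 3153522. Its summit was 656 bp upstream of the second TSS, within an intron of the longer transcripts. The signal was 328 in the pooled list (rank 92), 151 in replicate 2 (rank 116) and 177 in replicate 3 (rank 70). All 3 ranks were near the top of their lists, and no window of another protein-coding gene held the summit. The next pooled candidate of Mad had a signal of 50.9, at rank 3911.

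The co-Smad gene Med (Medea; FBgn0288966, 3R 31611046 to 31615375, plus strand, 4330 bp, 1 TSS) had its only optimal summit 783 bp past its 3′ end. The signal was 286 in the pooled list (rank 121), 169.5 in replicate 2 (rank 87) and 118 in replicate 3 (rank 198). The summit lay in the 5′ UTR of the neighbour Mnat9, 2 bp from the TSS of that gene, and the windows of pasha and CG1792 hold it as well. Near the TSS of Med itself the strongest pooled candidate had a signal of 39.1 at rank 6750. The peak counted for Med was therefore at the promoter of another gene.

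The inhibitory Smad gene Dad (Daughters against dpp; FBgn0020493, 3R 17054007 to 17070408, plus strand, 16402 bp, 2 TSSs) had 1 optimal peak among 13 pooled candidates, in an intron 10230 bp downstream of the nearer TSS. Its signal was 116 in the pooled list (rank 859), 60.2 in replicate 2 (rank 830) and 53.6 in replicate 3 (rank 1121). The window had the lowest GC content of the 18, at 26.9%. The TSS of Ns1, 7548 bp away, was the nearest protein-coding one.

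The repressor gene brk (brinker; FBgn0024250, X 7307939 to 7311132, plus strand, 3194 bp, 1 TSS) had 1 optimal peak, 811 bp upstream of its TSS. Its signal was 100.3 in the pooled list (rank 1167), 49.5 in replicate 2 (rank 1193) and 53.3 in replicate 3 (rank 1137). The replicates put it at nearly the same rank and their summits were 1 bp apart, at 22 and 23 bp from the pooled one. The summit is also in an intron of CG1677 and of lncRNA:CR44357, which overlap the upstream region of brk. A second pooled candidate lay 111 bp upstream of the brk TSS, with a signal of 64.3 at rank 2530, outside the optimal list.

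**Figure D2:**
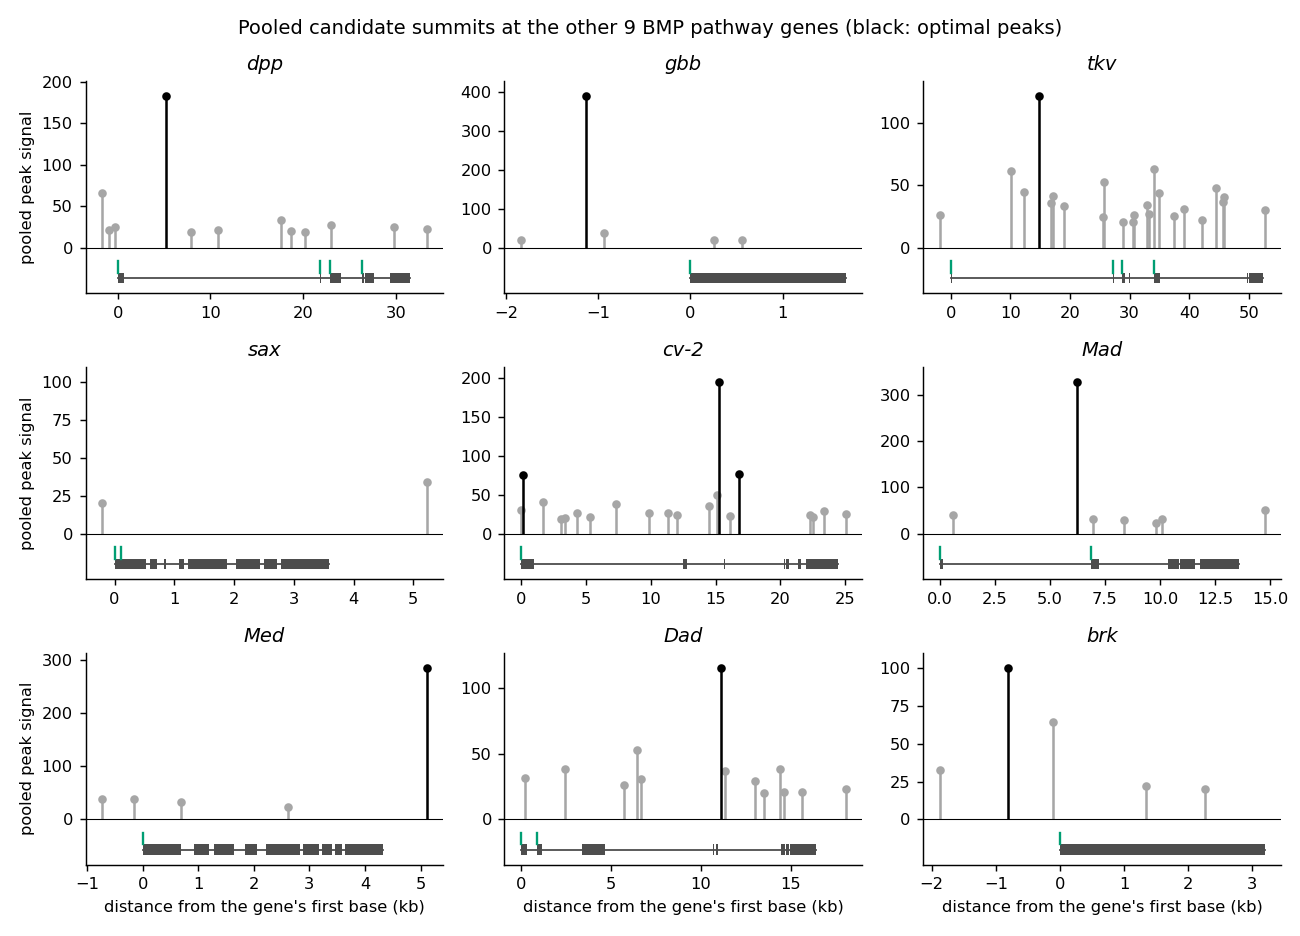
Pooled candidate summits at the 9 genes other than shn, as lines whose height is the pooled signal (black for optimal peaks, grey for other candidates), against distance from the first base of the gene in kb; below each, dark boxes are exons and green ticks TSSs. One tall peak stands apart from the other candidates at dpp, gbb, Mad and Med, cv-2 has 3 optimal peaks, and sax has none.

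The gene shn (schnurri; FBgn0003396, 2R 11159086 to 11217394, plus strand, 58309 bp, 5 TSSs), which encodes the zinc finger partner of Mad and Med, held 8 of the 18 optimal summits. All 8 were in introns, and none was in an exon. They made up 24.2% of its 33 pooled candidates. The other 25 candidates of shn had signals from 21.7 to 69.5 with a median of 35.7.

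The strongest shn peak was at its second promoter, 220 bp upstream of that TSS and 14497 bp from the first base of the gene. Its signal was 213 in the pooled list (rank 251), 79.3 in replicate 2 (rank 482) and 131 in replicate 3 (rank 152). Replicate 3 gave it the higher rank. The window of CG13229 also holds this summit, and it was the only one of the 8 inside the window of another protein-coding gene. No optimal summit was near the first TSS.

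The other 7 shn summits lay 29674 to 48100 bp from the first base, a stretch of 18426 bp. The first of them had a signal of 113 in the pooled list (rank 921), 58.1 in replicate 2 (rank 895) and 53.6 in replicate 3 (rank 1119). The next 4 summits followed within 2304 bp, upstream of the fourth TSS. In order along the gene their pooled signals were 145, 95.6, 124 and 105, their ranks in replicate 2 were 435, 1464, 628 and 2255, and their ranks in replicate 3 were 805, 1041, 874 and 733. The first 2 of these 4 regions overlap, with summits 211 bp apart, and were counted as 2; 102 of the 2153 optimal peaks overlap another in this way. No other stretch of the genome had at least 4 optimal summits within 2304 bp, a width taken from shn itself after its values were seen. Within 3000 bp there were 5 such stretches and within 5000 bp there were 11. The shn stretch of 2304 bp holds 4 summits only with its overlapping pair counted as 2.

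The last 2 summits of shn flanked the fifth TSS, 1767 bp upstream and 2557 bp downstream of it. The upstream one had a signal of 90.2 in the pooled list (rank 1396), 39.3 in replicate 2 (rank 1806) and 56.9 in replicate 3 (rank 984). The downstream one had a signal of 92.8 in the pooled list (rank 1329), 30.6 in replicate 2 (rank 2849) and 63.0 in replicate 3 (rank 803). Both ranked higher in replicate 3. At the upstream one the summit of replicate 2 was 189 bp away from the pooled summit, beside a pooled candidate that just missed the optimal list (signal 69.5, rank 2212).

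**Figure D3:**
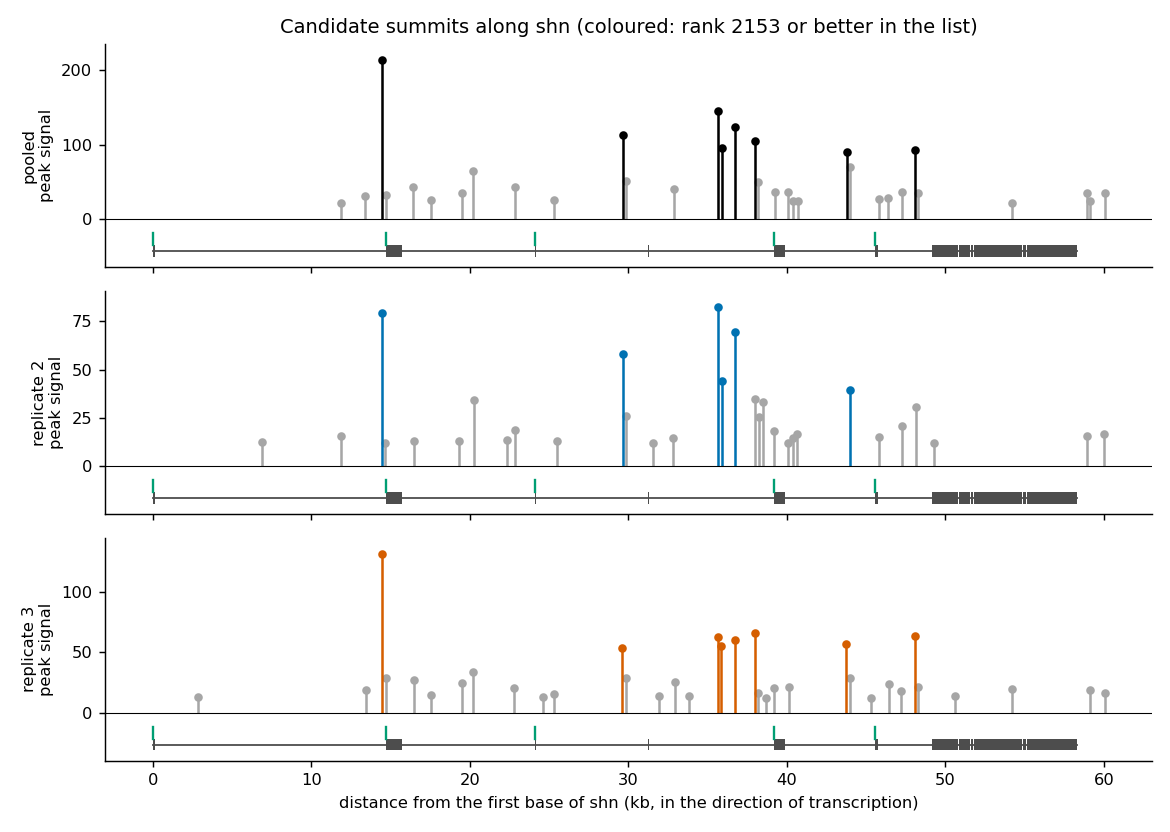
Candidate summits along shn in the pooled list, replicate 2 and replicate 3 as lines whose height is the signal in that list (separate scales), against distance from the first base of the gene in kb; coloured lines have rank 2153 or better in their list, grey ones do not, dark boxes are exons and green ticks TSSs. There are 8 coloured lines in the pooled list, 6 in replicate 2 and 8 in replicate 3; the pooled peaks of signal 105 and 92.8 have no coloured counterpart in replicate 2.

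Replicate agreement was measured in both the whole list and the 18 peaks. Of the 18, 14 overlapped a candidate among the 2153 strongest of both replicates (77.8%), against 70.3% of all optimal peaks. The 4 that did not were 2 peaks of cv-2 and 2 of shn. The cv-2 peak at 16847 bp ranked under 2153 in replicate 3, and the cv-2 promoter peak and the shn peaks of signal 105 and 92.8 did so in replicate 2. The count was 13 rather than 14 when an overlap of at least 50% of both regions was required. It was also 13 when summits within 100 bp were required. In 12 of 18 the ranks in the replicates were within 2-fold of each other (66.7%, against 69.9% of all optimal peaks). Summits of both replicates lay within 50 bp of the pooled summit in 16 of 18 peaks, and in 75.2% of all optimal peaks. Of the 8 shn peaks 5 ranked higher in replicate 3, and of the 10 peaks of the other genes 3 did. Across all optimal peaks the share was 48.6%. Each gene is a single locus in 2 libraries, so these counts are descriptions.

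By position, 4 of the 18 optimal summits were within 1 kb of a TSS of their own gene, namely those at cv-2, Mad, brk and the second shn promoter (22.2%, exact binomial 95% interval 6.41 to 47.6%, for counting only). Thus 4 of 10 genes had a TSS with such a summit inside 1 kb, against 10.8% of all protein-coding genes. Another 12 summits were in introns more than 1 kb from a TSS, and the flanks held 1 upstream (gbb) and 1 downstream (Med). Counting any protein-coding TSS, 6 of 18 were within 1 kb (33.3%), against 55.1% of all optimal summits, and the median distance was 2498 bp against 672 bp. The 6 were single summits at gbb, cv-2, Mad, Med, brk and shn, although shn held 8 of the 18. Its other summits lay 1208 to 5536 bp from a TSS, so much of the lower share within 1 kb came from shn. Those of dpp, tkv, Dad and the cv-2 introns lay 5231 to 13604 bp away. For 12 of the 18 the nearest protein-coding TSS was that of the BMP gene itself, and 8 of those 12 were in shn. By annotation of all genes together, 15 of 18 were in introns (83.3%, against 49.2% of all optimal summits), 2 in 5′ UTRs and 1 in a noncoding exon. None was in a coding exon or intergenic, where 0.882% and 34.4% of all optimal summits lay. The choice of windows around genes limits a share of intergenic summits and favours introns. Of the 15 intronic summits 8 were in shn, and the one counted for brk was in introns of other genes. Of the other 107 pooled candidates of the 10 genes, 21 were in coding exons (19.6%), against 28.6% of all candidates that are not optimal.

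The count of summits was set against that of protein-coding genes of like length, within 25% of the length of the gene. Of 237 such genes for shn, 133 had no optimal summit and 3 had as many as shn or more, so that 98.7% had fewer (exact binomial 95% interval 96.3 to 99.7%, for counting only). The 3 were Raf (a kinase of the EGFR pathway; 48405 bp) with 10 optimal summits, and ush (u-shaped, a GATA cofactor; 64341 bp) and Hr4 (a nuclear receptor; 66017 bp) with 8 each. Candidates of any strength were also many at shn: its 33 pooled candidates compare with a median of 11, and 1.27% of the like-length genes had as many.

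The other genes were less far from genes of their length. For cv-2, 29 of 466 like-length genes (6.22%) had at least 3 optimal summits, and 1.07% had at least its 20 pooled candidates. The count of cv-2 was 1 rather than 3 when only peaks at or above the median signal were taken, and also when summits went only to the gene of the nearest TSS. A single optimal summit or more was found in 44.0% of genes as long as tkv, 39.9% for dpp, 34.0% for Dad and 33.0% for Mad. For the short genes the shares were 21.2% for Med, 17.1% for brk and 14.4% for gbb. A count of 1 is thus common among genes as long as tkv or dpp. These shares are taken over different numbers of genes, from 282 for tkv to 2967 for gbb.

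**Figure D4:**
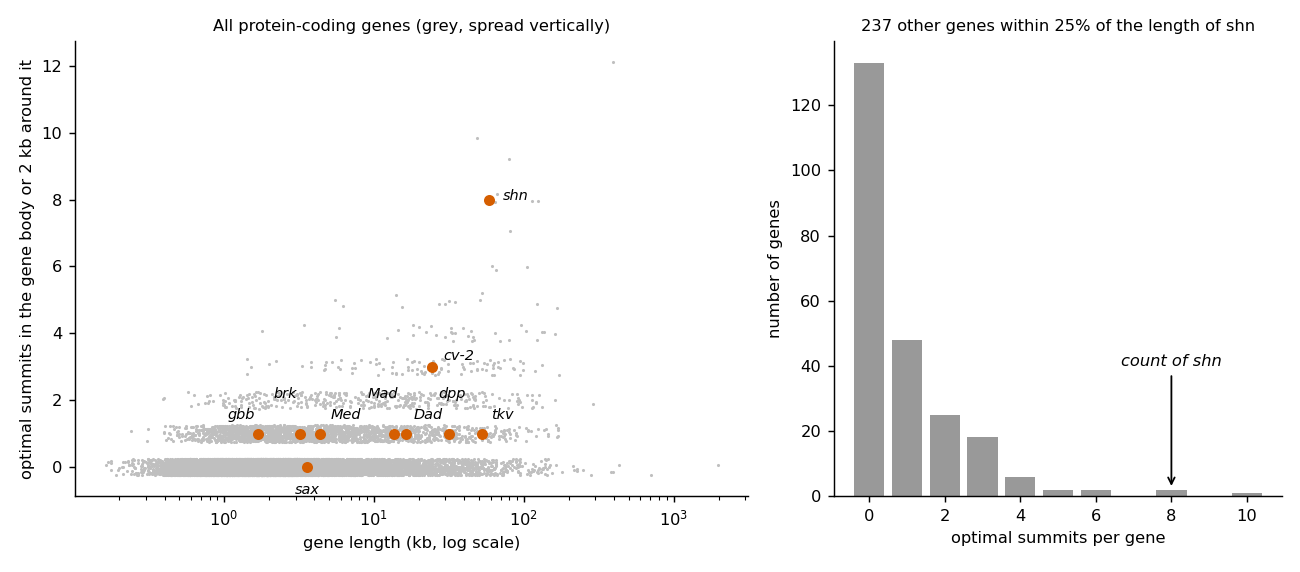
Left, number of optimal summits at the locus (gene and 2 kb on either side) against gene length in kb (log axis) for all protein-coding genes (grey, spread vertically at random to show overlap) and the 10 BMP pathway genes (orange); right, the number of genes with each count among the 237 other genes within 25% of the length of shn. The count of 8 at shn lies at the upper edge for its length, while 8 of the other 9 genes have 1 summit or none.

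A further 40 genes of the pathway, listed by role, gave 17 with an optimal summit (42.5%, against 18.6% of all protein-coding genes), and their median was 0 per gene. They were not set against genes of like length, and they run from 523 bp (srw) to 93010 bp (Snoo). For wit, dally, dlp, Snoo, Doc1, Doc2, ush, tup, Ance and egr, the protein-coding TSS nearest to the strongest summit was that of another gene. The ligand gene scw had none. Of the type II receptor genes, wit had 1 (signal 148, rank 536) and put had none. Of 12 genes for extracellular modulators 4 had one, which were magu, dlp, sog and dally. Of 6 genes acting inside the cell 4 had one, and of 19 target genes 8 did. The highest signal was at ush (1116, rank 3, with cbt as the gene of the nearest TSS). Then came magu (also called pentagone, a secreted protein that spreads dpp signalling in the wing), with 310.4 at rank 99, 255 bp upstream of a TSS. A peak 92 bp upstream of a TSS of gro (groucho, a corepressor that works with brk) had a signal of 277 at rank 132. The next were dlp (dally-like, a glypican; 212, rank 252), Snoo (a Smad-binding protein of the Ski family; 176, rank 369) and Ance (an amnioserosa marker; 170.1, rank 399, nearer to the TSS of Smg5). Among the targets, zen, pnr and Doc3 had no optimal summit, whereas Doc1 and Doc2 had 1 each in the flank after the gene, nearer to the TSSs of Argk2 and CG5194. The wing targets salm, salr and vg had none, and bi had 1 (signal 83.3). Of the remaining targets, tup had 2, egr had 1 in an intron (signal 107) and peb had 1 (signal 70.6). The peb summit lay 516 bp upstream of a TSS of peb, and the stronger tup summit lay in the flank after the gene (signal 86.5). No optimal summit was found at rho, tin, bap, eve or bam.

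Short words were counted on both strands within 100 bp of the 18 summits. TAATTA, the core of many homeodomain sites, was in 4 windows (22.2%), against 12.9% of all optimal peaks and 8.88% of pooled candidates that are not optimal. These 4 were 2 at cv-2 and 2 at shn. The 12.9% and the 8.88% both lie within the exact binomial interval for 4 of 18 windows (6.41 to 47.6%). At cv-2 the word began 25 bp from the summit at 16847 bp and 34 bp from the summit at the promoter, on the side of lower coordinates. At shn it began 58 and 60 bp from the summits of signal 105 and 92.8, on the side of higher coordinates. These were the same 4 peaks that lacked a candidate among the 2153 strongest of both replicates, while none of the 14 peaks that had one held the word, an overlap noticed after the values were seen. Over all optimal peaks the word was in 12.8% of the 1514 peaks with such candidates and in 13.0% of the other 639.

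GTCTG, which is part of the Smad site in the silencer element of brk, was in 4 of 18 windows (22.2%), all of them in shn. The share was 17.9% for all optimal peaks and 25.5% for pooled candidates that are not optimal. One began 2 bp from the shn summit of signal 105 and spanned it. The 17.9% and the 25.5% also lie within the interval for 4 of 18 windows. That interval is for counting only, because it treats the windows as independent and 8 of the 18 are in shn. TGGCGC and TGGCGT, forms of the brk binding core, were in none of the 18, against 9.80% and 6.87% of all optimal peaks, and the GAGA repeat GAGAGAG was in none, against 5.57%. With 18 windows a count of 0 allows a share of up to 16.7%, so a difference from these shares was not detectable with so few windows. The GC content of the 18 windows ranged from 26.9 to 45.8% with a median of 35.1%, and the median of all optimal peaks was 37.8% (quartiles 33.8 and 42.8%). A match of a word is only a match of letters, and binding by any factor was not measured at these words.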

How the data were processed

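ChIP-seq peak lists from 2 biological replicates of 1 group were used, 4 lists in dm6. Another 4 lists, in dm3, were not used. Per the deposited README files, the candidate lists of each replicate and of the pool were made by the authors from alignments, and the optimal peaks from those candidate lists; the aligner, peak caller and reproducibility threshold are not stated. The signal is the authors' deposited peak value, of unstated scale, used within a list. A summit was placed at the region's start plus the deposited offset.

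Genes came from Ensembl 115 (BDGP 6.54); all 10 had the same bounds in RefSeq Release 6, whose chromosomes contain every region. The members, the 40 other genes and the 5 words were chosen with earlier results of these data known. Named genes were the members, the 6 other pathway genes of highest signal with counts per role, genes of like length with as many summits as shn, and genes sharing a member's summit; further pathway genes were named after their values were seen. A replicate rank is that of the overlapping candidate (at least 1 bp) with the nearest summit. Sequences at gbb, cv-2 and shn are not reported here. No test was run, since there is 1 group; binomial intervals are exact. Counting steps were tested on simulated data. Alternatives changed the list, window, overlap, length range and TSS distance. Python 3.11.15, pandas 2.3.3 and scipy 1.17.1 were used.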

Additional observations from a re-analysis of the deposited data

How the results depend on the processing

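Of 49 values recomputed for the main counts, 44 stayed within 1.5 times (counts) or within the exact interval (shares), and 5 did not. These limits are wide, so staying within them does not show that a value is stable. The share of summits near a TSS of their own gene was 11.1% within 500 bp and 38.9% within 2 kb. Both lie inside its interval of 6.41 to 47.6%. Counts of 6 genes rather than 9 (inside the gene itself) and 12 summits rather than 18 (by nearest TSS) also passed. When each summit was given only to the gene of the nearest TSS, 5 of the 10 genes rather than 9 had an optimal summit, and 100% of genes of like length had fewer than shn; it was 100% as well with a length range of 10%, where fewer genes are compared. Among optimal peaks at or above the median signal, shn had 5 summits, the list being shorter by construction. With the 1000 strongest candidates of each replicate, 9 of the 18 peaks had a candidate in both, again from shorter lists. With replicate 2 or replicate 3 alone the number of genes, the number of summits and the count at shn stayed within 1.5 times, at 6 for shn without replicate 3 and 8 without replicate 2. For single genes, 15 of 80 values moved by over 1.5 times. By nearest TSS, gbb, tkv, Med and Dad had 0 and cv-2 had 1. At or above the median signal, brk had 0, cv-2 had 1 and shn had 5. Inside the gene itself gbb, Med and brk had 0, and gbb had 0 with 1 kb on either side. With 5 kb sax had 1, and without replicate 2 dpp and tkv had 2 each. Depth is unknown, so what sequencing depth limits cannot be stated. No paired analysis was possible because there is 1 group.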
